A study of Mus musculus with 18 samples.

Results

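Fibcd1, C1ql2, Olfml2b, Dgkg and Serpina3n are 5 genes whose signal was higher in the hippocampus than in the cortex of young mice. They were chosen from these arrays for that difference, so their hippocampus values against cortex are described here and not tested. They make up 5 of the 8127 mouse genes that could be named on the array. Of the array's 46120 probes, 1 could be named for each of the 5. Whether unnamed probes also read them is not known. All 5 probes were detected on all 18 arrays. The probe identifiers carry the NCBI gene numbers 98970 for Fibcd1, 226359 for C1ql2, 320078 for Olfml2b, 110197 for Dgkg and 20716 for Serpina3n.

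The arrays measured total RNA from the hippocampus and the cortex of CD-1 mice, an outbred stock, aged 16 days and labelled male. The hypoxic mice had spent 2 weeks, from postnatal day 2, under chronic consistent hypoxia (CCH) or chronic intermittent hypoxia (CIH), and the controls were of the same age. The 6 groups were CCH hippocampus, CIH hippocampus, control hippocampus, CCH cortex, CIH cortex and control cortex, with 3 arrays each. The sources used here give neither the oxygen levels nor the cycle lengths. They do not say whether an array held 1 animal or whether both tissues of a number came from 1 animal, so p-values measure only the spread between these arrays, which may be technical.

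The hippocampus is a folded sheet of allocortex in which information runs from the dentate gyrus through the mossy fibres to CA3 and on to CA1, and its principal neurons differ in many transcripts from the layered pyramidal cells of the neocortex. Fibcd1 encodes a membrane receptor with a fibrinogen-like domain that binds acetylated groups such as those of chitin, and it is known as a mark of CA1 pyramidal cells. C1ql2 is a secreted C1q-like synaptic organiser of dentate granule cells, found at their mossy fibre terminals. Olfml2b encodes a secreted protein with an olfactomedin domain. Dgkg encodes diacylglycerol kinase gamma, which turns the second messenger diacylglycerol into phosphatidic acid. Serpina3n is a secreted serine protease inhibitor known as a mark of reactive astrocytes. Hypoxia acts on transcription largely through hypoxia-inducible factors, which bind DNA at a short core, ACGTG.

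The promoter windows of 3 of the genes are shown because they hold the extremes of base composition and the only hypoxia response core among the 5. Each runs from 250 bases before the annotated start site to 50 bases after it, 5′ to 3′ on the gene's strand, from RefSeq on GRCm38.p6, and all 5 genes matched the table. Capitals mark matches, on either strand, to ACGTG (the hypoxia response core), GGGCGG (the GC box) or TATAAA (the TATA box).
Fibcd1, chr2:31845956-31846255, minus strand: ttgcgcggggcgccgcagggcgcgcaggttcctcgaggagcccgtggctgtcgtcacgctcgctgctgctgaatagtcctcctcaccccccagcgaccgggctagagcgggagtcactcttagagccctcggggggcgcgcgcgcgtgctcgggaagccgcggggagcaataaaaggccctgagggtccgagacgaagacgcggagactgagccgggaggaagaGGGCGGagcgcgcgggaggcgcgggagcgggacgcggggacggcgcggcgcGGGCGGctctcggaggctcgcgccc
Dgkg, chr16:22657182-22657481, minus strand: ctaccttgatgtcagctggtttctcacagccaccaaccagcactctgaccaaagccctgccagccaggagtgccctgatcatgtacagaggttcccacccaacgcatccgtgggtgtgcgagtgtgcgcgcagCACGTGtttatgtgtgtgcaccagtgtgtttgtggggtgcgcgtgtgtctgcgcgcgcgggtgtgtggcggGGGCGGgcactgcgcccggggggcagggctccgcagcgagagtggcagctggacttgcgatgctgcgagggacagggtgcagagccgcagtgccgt
Serpina3n, chr12:104406458-104406757, plus strand: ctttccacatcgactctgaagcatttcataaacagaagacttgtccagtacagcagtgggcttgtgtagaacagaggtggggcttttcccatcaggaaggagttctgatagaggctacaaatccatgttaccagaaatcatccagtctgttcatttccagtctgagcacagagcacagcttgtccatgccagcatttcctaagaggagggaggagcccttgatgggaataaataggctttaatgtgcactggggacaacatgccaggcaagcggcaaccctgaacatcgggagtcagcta

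The windows of C1ql2 (chr1:120340332-120340631, plus strand) and Olfml2b (chr1:170644282-170644581, plus strand) were read in the same way. The Fibcd1 window had a GC content of 74.3% and 46 CG dinucleotides, and the Serpina3n window had 48.7% and 3. C1ql2, Olfml2b and Dgkg lay between them with 67.3%, 69.0% and 65.0% GC and with 23, 25 and 22 CG dinucleotides. The medians of all 32817 windows of the table were 52.7% GC and 7 CG dinucleotides. A GC box was present in 4 of the 5 windows, all but that of Serpina3n, and in 35.6% of all windows. The hypoxia response core was present in the Dgkg window alone, as CACGTG at bases 134 to 139, which reads ACGTG on both strands, and 19.6% of all windows hold that core. The E-box CANNTG, which overlaps the core at that place, was found in the windows of C1ql2, Olfml2b and Dgkg, against 72.3% of all windows. No TATAAA was found in the 5, against 13.6% of all windows. These matches describe letters in a window and say nothing of binding.

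Raw median intensities of the arrays ran from 70.8 to 96.4, and 12251 to 14530 probes per array were detected. A slide carried 1 array of each group, always at the same position. Position on the slide and group cannot be told apart, and the replicate number is the slide. Xist, the RNA of the inactive X chromosome, was detected on 5 arrays although every sample is labelled male: arrays 2 and 3 of CCH cortex, array 2 of CIH cortex, array 3 of CCH hippocampus and array 2 of CIH hippocampus. Kdm5d, a Y-linked gene, was not detected on those 5, nor on control cortex 2. No control array had detected Xist. The 2 tissues of CCH 2 differed in it, so a number does not mark 1 animal there. Results were therefore also computed over the 13 arrays without detected Xist, which leaves CCH cortex with array 1 only, a lone array assumed to vary like the other groups.

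Values are normalised signals on a log2 scale, so a difference of 1 is a doubling, and levels of different probes are not comparable. Fibcd1 had 11.42, 10.99 and 11.78 in CCH hippocampus, 11.54, 11.56 and 11.33 in CIH hippocampus and 11.02, 11.66 and 11.77 in control hippocampus. In cortex it had 7.80, 8.38 and 8.36 in the CCH group, 8.52, 8.53 and 8.10 in the CIH group and 8.22, 8.60 and 7.77 in the control group. All 9 hippocampus arrays lay above all 9 cortex arrays, and the lowest hippocampus array stood 2.39 above the highest cortex array. The exposure groups overlapped within each tissue. Raw intensities were 2048.2 to 3932.3 in hippocampus, with a median of 2868.2, and 346.5 to 558.9 in cortex, with a median of 447.7.

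C1ql2 had 10.76, 10.88 and 10.90 in CCH hippocampus, 10.79, 10.84 and 10.68 in CIH hippocampus and 10.98, 10.97 and 11.22 in control hippocampus. In cortex it had 7.88, 8.68 and 8.59 in the CCH group, 8.53, 8.44 and 8.71 in the CIH group and 8.29, 8.24 and 8.54 in the control group. The 6 hypoxic hippocampus arrays all lay below the 3 control ones, while the cortex groups overlapped, with CCH cortex 1 the lowest of all. The lowest hippocampus array was 1.98 above the highest cortex array. Raw intensities ran from 1722.9 to 2523.5 in hippocampus and from 429.0 to 554.7 in cortex.

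Olfml2b had 9.14, 9.42 and 9.33 in CCH hippocampus, 9.05, 9.09 and 9.20 in CIH hippocampus and 9.39, 9.30 and 9.34 in control hippocampus. In cortex it had 6.87, 6.99 and 7.01 in the CCH group, 7.06, 6.97 and 6.98 in the CIH group and 7.02, 7.02 and 6.996 in the control group. The CIH hippocampus arrays all lay below the control hippocampus arrays, and the CCH hippocampus arrays overlapped both. The lowest hippocampus array was 1.99 above the highest cortex array. Raw intensities ran from 605.2 to 908.2 in hippocampus and from 156.6 to 214.8 in cortex.

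Dgkg had 10.08, 9.92 and 10.29 in CCH hippocampus, 9.96, 10.33 and 10.25 in CIH hippocampus and 10.18, 10.35 and 10.36 in control hippocampus. In cortex it had 8.69, 8.35 and 8.38 in the CCH group, 7.98, 8.29 and 8.29 in the CIH group and 7.93, 8.40 and 7.91 in the control group. The 3 CCH cortex arrays lay above the 3 CIH cortex arrays, and other exposure groups overlapped. The gap of 1.23 between the lowest hippocampus array and the highest cortex array was the narrowest of the 5 genes. Raw intensities ran from 1105.0 to 1702.3 in hippocampus and from 377.4 to 678.9 in cortex.

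Serpina3n had 11.10, 11.39 and 11.15 in CCH hippocampus, 11.26, 11.04 and 10.92 in CIH hippocampus and 11.21, 11.29 and 11.33 in control hippocampus. In cortex it had 8.69, 8.88 and 8.90 in the CCH group, 9.18, 8.52 and 9.09 in the CIH group and 8.97, 9.07 and 8.68 in the control group. Exposure groups overlapped in both tissues, and the gap between tissues was 1.74. Raw intensities ran from 1992.7 to 3121.5 in hippocampus and from 445.7 to 782.9 in cortex. Serpina3n has close relatives among the mouse Serpina3 genes, and whether its probe also reads them was not tested. Of those relatives Serpina3k and Serpina3m were detected on no array, and Serpina3g on 8.

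**Figure D1:**
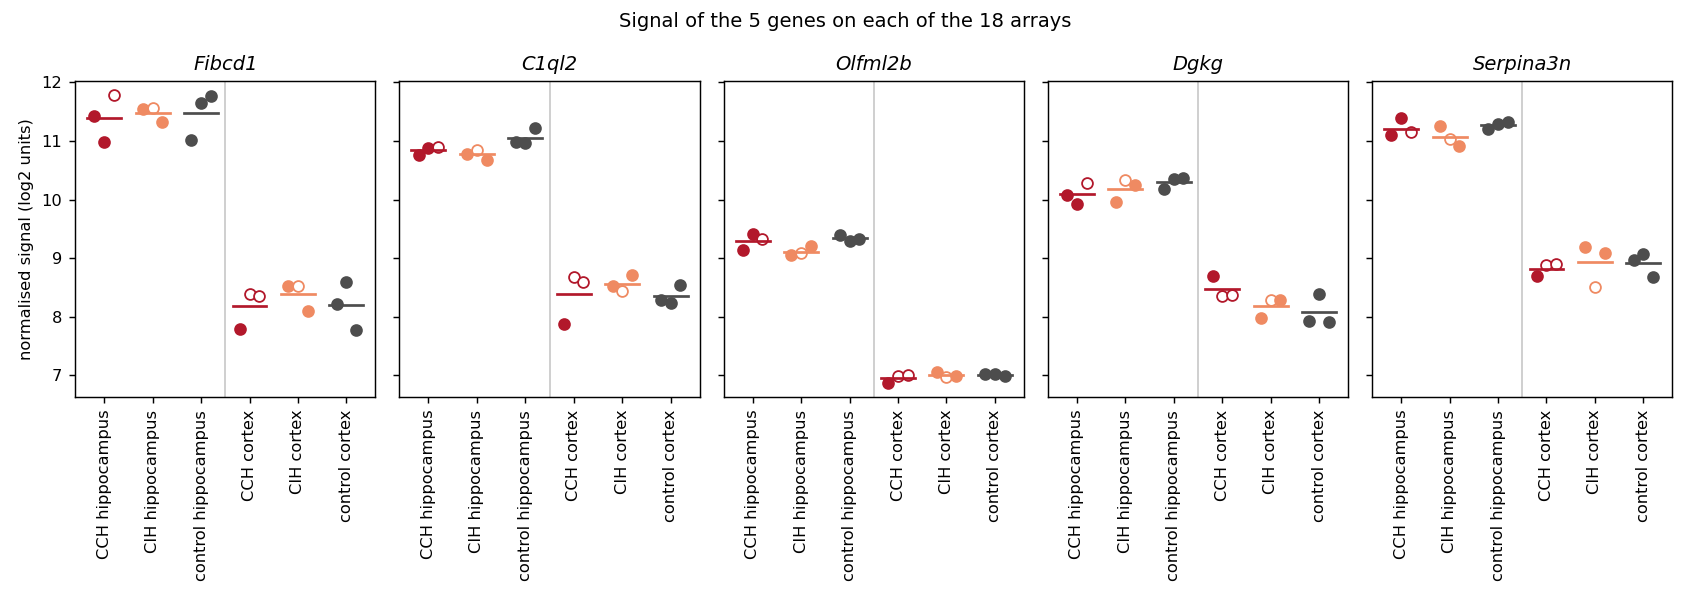
Normalised signal (log2 units, vertical axis) of the 5 genes on each of the 18 arrays. Points are arrays in replicate order, bars are group means, and open points are the 5 arrays with detected Xist; in every panel the 9 hippocampus points lie above the 9 cortex points, with the narrowest gap, 1.23, for Dgkg.

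In control mice the signal of Fibcd1 averaged 11.48 ± 0.40 in hippocampus and 8.20 ± 0.42 in cortex (SD, n = 3 each), a difference of 3.29 or 9.75-fold. C1ql2 averaged 11.06 ± 0.14 in control hippocampus and 8.36 ± 0.16 in control cortex, a 6.49-fold difference. Serpina3n averaged 11.28 ± 0.06 in control hippocampus and 8.91 ± 0.20 in control cortex, a 5.16-fold difference. These 3 had the largest differences in favour of hippocampus among the 14639 probes kept. Olfml2b averaged 9.34 ± 0.05 in control hippocampus and 7.01 ± 0.01 in control cortex, or 5.02-fold. Dgkg averaged 10.30 ± 0.10 in control hippocampus and 8.08 ± 0.27 in control cortex, or 4.64-fold. In bulk tissue more cells of a type and more RNA per cell cannot be told apart. The 5 genes held the 5 highest differences of all probes kept, and Dgkg at 2.22 was followed just outside by a probe with no gene name here at 2.19 and, as the next named gene, by the protocadherin Pcdh20 at 2.16. Of all probes, 5.51% were called higher in control hippocampus and 11.7% were called in either direction, at an adjusted p under 0.05.

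**Figure D2:**
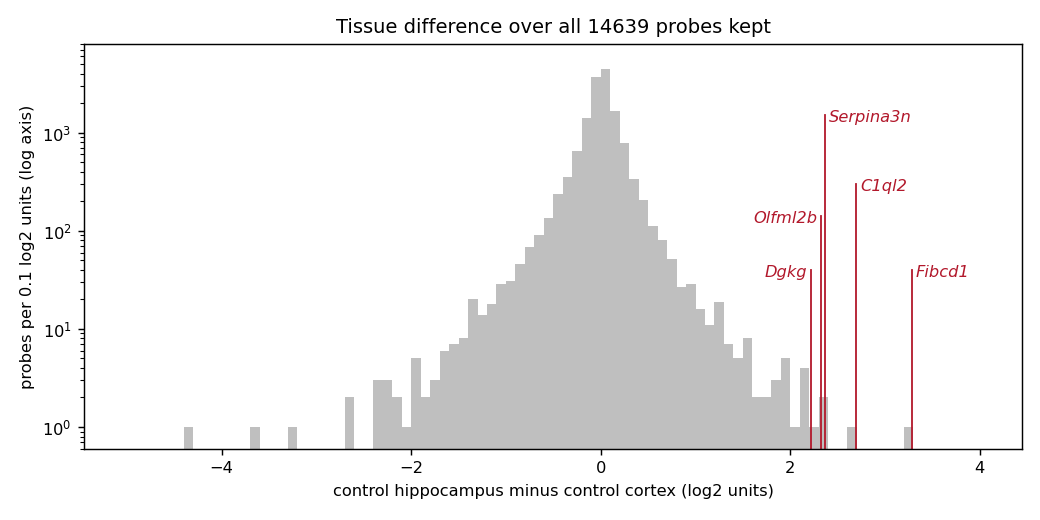
Number of probes (log axis) per 0.1 log2 units of the difference control hippocampus minus control cortex, over the 14639 probes kept. Red lines mark the 5 genes, at 2.22 for Dgkg to 3.29 for Fibcd1, the right-hand end of the distribution from which they were chosen, and the height of a line has no meaning.

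The hypoxic mice gave the same order of the 5 genes, while their ranks among all probes moved. Hippocampus exceeded cortex by 3.22 for Fibcd1, 2.46 for C1ql2, 2.39 for Serpina3n, 2.34 for Olfml2b and 1.62 for Dgkg under CCH. Under CIH the differences were 3.10 for Fibcd1, 2.21 for C1ql2, 2.15 for Serpina3n, 2.11 for Olfml2b and 1.99 for Dgkg. Fibcd1 ranked first of all probes under CCH and CIH alike. C1ql2 ranked 3 under both. Serpina3n ranked 4 under CCH and 5 under CIH, Olfml2b 5 and 7, and Dgkg 25 and 10. Of all probes, 14.3% were called under CCH and 10.7% under CIH, with 6.83% and 4.65% called higher in hippocampus, and 3.66% of probes had all 9 hippocampus arrays above all 9 cortex arrays, as these 5 did.

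Taking hippocampus minus cortex within a slide gives 9 differences per gene. Fibcd1 spread most, from 2.60 on the CCH arrays of slide 2 to 3.998 on the control arrays of slide 3. Olfml2b spread least, from 1.99 to 2.42, and its 3 CIH differences of 1.99, 2.12 and 2.22 were below all 6 others. C1ql2 had 2.69, 2.73 and 2.68 in controls, with all 3 CIH differences below them at 2.26, 2.40 and 1.98. Dgkg had 1.39, 1.57 and 1.91 under CCH, all below its CIH values of 1.98, 2.04 and 1.96 and its control values of 2.25, 1.95 and 2.45. Serpina3n ran from 1.83 to 2.64, and its exposures overlapped. The control differences took part in choosing the genes, which by itself favours exposed values below them. The share of all probes whose slide differences separate in this way was not computed. Over the 13 arrays without detected Xist the CCH difference was 2.94 for C1ql2, 2.56 for Serpina3n and 1.31 for Dgkg.

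**Figure D3:**
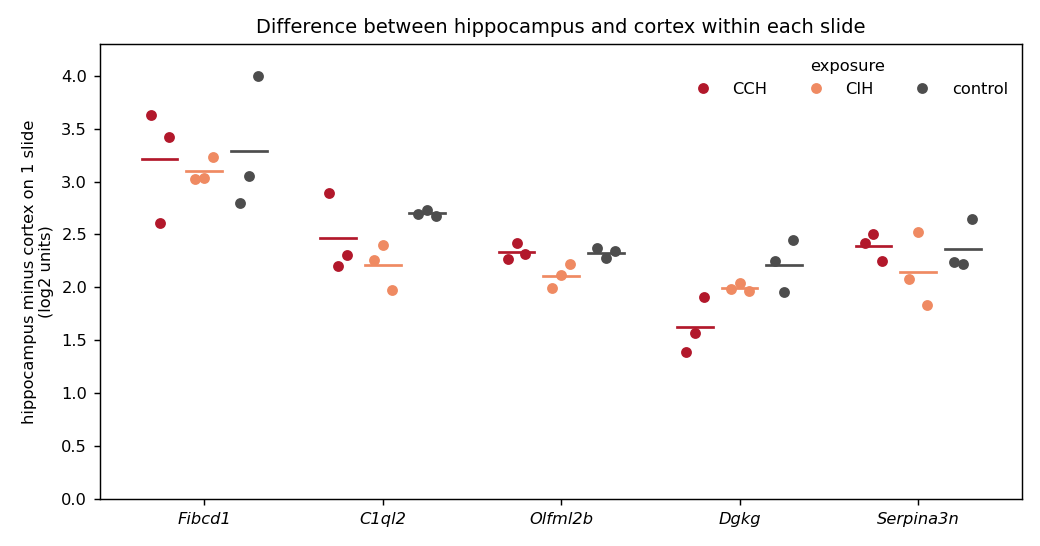
Hippocampus minus cortex (log2 units, vertical axis) of each gene on each of the 3 slides, by exposure. Points are slides and bars are means of the 3. The CCH points of Dgkg (1.39 to 1.91) lie below its CIH and control points, and the CIH points of Olfml2b (1.99 to 2.22) lie below its CCH and control points. The control points took part in choosing the genes, which by itself favours exposed points below them.

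The exposure comparisons ask whether 2 weeks of hypoxia moved these genes within a tissue. None of the 5 was called in hippocampus or cortex, under CCH or CIH against control or CIH against CCH, by limma with Benjamini-Hochberg adjustment over 14639 probes. In hippocampus all 5 were below control under both exposures, with a median difference of −0.09 (−0.21 to −0.05) under CCH and −0.20 (−0.29 to −0.0044) under CIH, against −0.0034 and −0.00088 for all probes. The control hippocampus arrays took part in choosing the genes for high values, so this shared sign, and the place of control hippocampus as the highest of the 6 group means for every one of them, are not independent of the choice. The share of all probes called was 0.519% for CCH and 0.0615% for CIH against control in hippocampus, and 0.287% for CIH against CCH. At an unadjusted p under 0.05 there were 0, 1 and 1 of the 5 in these comparisons, against 1227, 934 and 968 of the 14639 probes. The groups did not overlap for 1, 2 and 0 of the 5, against 12.2%, 9.49% and 13.6% of all probes. The 2 exposures share their control arrays.

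Olfml2b had the smallest error. That error pools the spread of all 6 groups, and its cortex values, 6.87 to 7.06, were low. Tdo2, detected on no array, averaged 6.51 in control cortex. The SD of Olfml2b was 0.01 in control cortex, and small spread there narrows its hippocampus intervals too. It averaged 9.11 ± 0.08 in CIH hippocampus and 9.34 ± 0.05 in control hippocampus (SD, n = 3 each), a difference of −0.23 (SE 0.06, 95% interval −0.37 to −0.09) and 1.17-fold lower, with the same sign on 3 of 3 slides. The unadjusted limma p was 0.003 and the adjusted p was 0.33. Under CCH it averaged 9.29 ± 0.14, −0.05 from control (−0.18 to 0.09). CIH against CCH, which does not use the control arrays, gave −0.18 (−0.32 to −0.04, limma adjusted p = 0.51), again with 1 sign on 3 of 3 slides. Over the 13 arrays without detected Xist the CIH differences were −0.21 from control and −0.15 from CCH. The intervals are for single genes and are not adjusted for the number of probes.

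C1ql2 averaged 10.85 ± 0.07 in CCH hippocampus, 10.77 ± 0.08 in CIH hippocampus and 11.06 ± 0.14 in control hippocampus (SD, n = 3 each). The difference from control was −0.21 (−0.56 to 0.14, limma adjusted p = 0.87) under CCH and −0.29 (−0.63 to 0.06, limma adjusted p = 0.89) under CIH. The groups did not overlap in either comparison. CIH against CCH gave −0.08 (−0.42 to 0.27).

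Dgkg averaged 10.09 ± 0.18 in CCH hippocampus, 10.18 ± 0.20 in CIH hippocampus and 10.30 ± 0.10 in control hippocampus. Its differences from control were −0.20 (−0.52 to 0.12) under CCH and −0.12 (−0.44 to 0.20) under CIH. Serpina3n averaged 11.21 ± 0.15 in CCH hippocampus, 11.07 ± 0.17 in CIH hippocampus and 11.28 ± 0.06 in control hippocampus. Its differences from control were −0.07 (−0.39 to 0.26) under CCH and −0.20 (−0.53 to 0.12) under CIH. Fibcd1 averaged 11.40 ± 0.40 in CCH hippocampus, 11.48 ± 0.13 in CIH hippocampus and 11.48 ± 0.40 in control hippocampus, and its intervals were the widest, −0.63 to 0.46 under CCH and −0.55 to 0.54 under CIH. Over the 13 arrays without detected Xist the differences from control were −0.28 for Fibcd1, −0.30 for Dgkg and −0.03 for Serpina3n under CCH, and −0.05, −0.19 and −0.19 under CIH, none called by limma. Without CCH hippocampus 2, its lowest hippocampus array, Fibcd1 under CCH was 0.12 above control, and without control hippocampus 1 it was −0.32 from control.

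In cortex, where these genes are lower, the median difference of the 5 was −0.02 (−0.09 to 0.39) for CCH and 0.10 (−0.01 to 0.20) for CIH against control, and 0.11 (−0.29 to 0.20) for CIH against CCH. All probes were called at 0.84%, 0.15% and 0.471% in these comparisons, and the unadjusted p was under 0.05 for 1, 0 and 0 of the 5, against 1587, 933 and 1437 of the 14639 probes. The control cortex arrays took part in the choice as the low side, so values above control in cortex are not independent of it. The groups did not overlap for 0, 0 and 1 of the 5, against 15.1%, 12.5% and 13.9% of all probes. The gene with the low p was Dgkg, which averaged 8.47 ± 0.19 in CCH cortex, 8.18 ± 0.18 in CIH cortex and 8.08 ± 0.27 in control cortex (SD, n = 3 each). It was 0.39 above control under CCH (SE 0.15, 0.08 to 0.71, 1.31-fold), with an unadjusted limma p of 0.019, an adjusted p of 0.33 and that sign on 2 of 3 slides. Dgkg in CIH cortex was −0.29 from CCH cortex (−0.61 to 0.03, limma adjusted p = 0.56), and these 2 groups did not overlap. Without CCH cortex 1, the highest of its group, the CCH difference of Dgkg from control was 0.28. Over the 13 arrays, where CCH cortex 1 stands alone, it was 0.61.

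C1ql2 averaged 8.38 ± 0.44 in CCH cortex, 8.56 ± 0.14 in CIH cortex and 8.36 ± 0.16 in control cortex. It was 0.02 from control under CCH (−0.32 to 0.37) and 0.20 under CIH (−0.14 to 0.55). The CCH value rests on array 1, which had no detected Xist and was the lowest of the 3. Without array 1 the CCH difference was 0.28, and over the 13 arrays, where array 1 stands alone, it was −0.48. On that basis CIH against CCH in cortex was 0.74 for C1ql2 with a limma adjusted p of 0.037, against 0.18 (−0.17 to 0.52, adjusted p = 0.78) with all arrays; its adjusted p ran from 0.037 to 0.98 over the alternatives. Fibcd1, Olfml2b and Serpina3n averaged 8.18 ± 0.33, 6.96 ± 0.07 and 8.82 ± 0.12 in CCH cortex, 8.38 ± 0.25, 7.005 ± 0.05 and 8.93 ± 0.36 in CIH cortex, and 8.20 ± 0.42, 7.01 ± 0.01 and 8.91 ± 0.20 in control cortex. Their differences from control lay between −0.09 and 0.19, with the narrowest intervals for Olfml2b, −0.19 to 0.08 under CCH and −0.14 to 0.13 under CIH. The cortex signal of Olfml2b was near the level of undetected probes, such as Tdo2 at 6.51 in control cortex. Narrow intervals there do not show that it was unchanged.

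**Figure D4:**
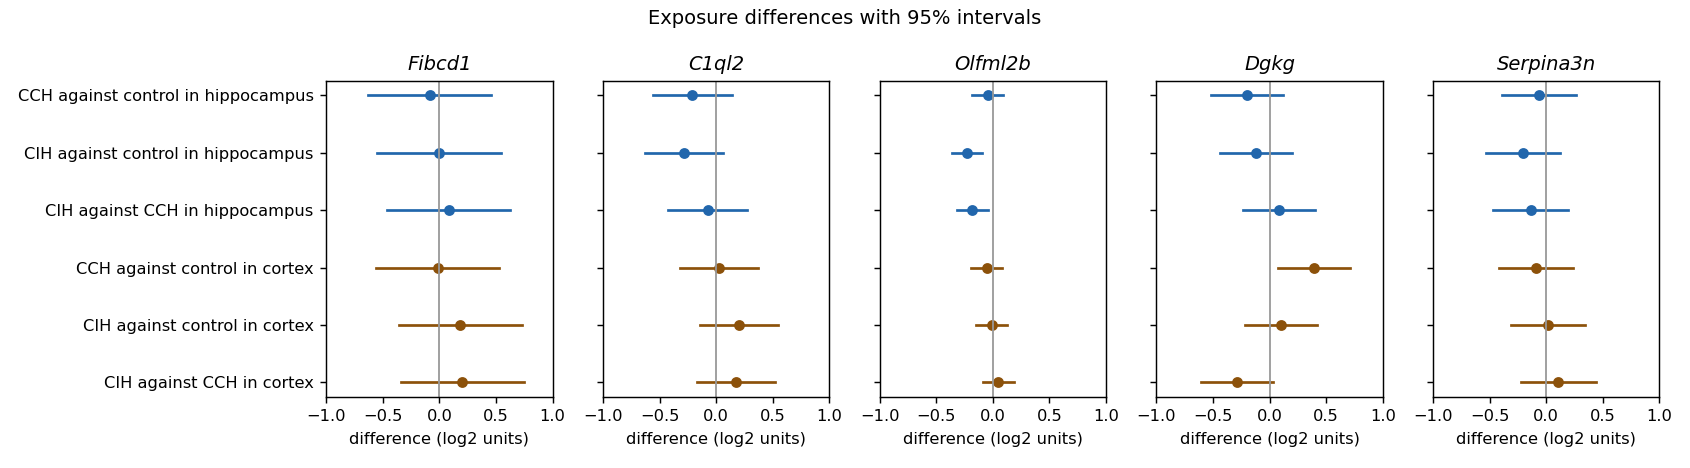
Exposure differences (log2 units, horizontal axis) of each gene in hippocampus (blue) and cortex (brown), with unadjusted 95% intervals from the limma fit. Intervals leave out 0 for Olfml2b under CIH in hippocampus against control (−0.37 to −0.09) and against CCH (−0.32 to −0.04), and for Dgkg under CCH in cortex (0.08 to 0.71); no adjusted p was under 0.05, and comparisons with control use arrays that took part in choosing the genes.

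The effect of an exposure in hippocampus minus its effect in cortex equals the tissue difference under that exposure minus the tissue difference in controls. The genes were chosen for a high difference in controls, which by itself favours negative values, so these are given as a description with no test. For Dgkg under CCH the value was −0.60 (SE 0.21), made of −0.20 in hippocampus and 0.39 in cortex. For C1ql2 under CIH it was −0.49 (SE 0.23), made of −0.29 in hippocampus and 0.20 in cortex. For Olfml2b under CIH it was −0.22 (SE 0.09), made of −0.23 in hippocampus and −0.0078 in cortex. Adjusted over all probes by limma, 0.0% of all probes were called for either exposure, and 668 probes for CCH and 383 for CIH had an unadjusted p under 0.05.

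By the pattern over all 18 arrays, each probe with its own mean subtracted, the nearest of 3974 other named genes were mostly the 5 themselves. The measure is the root mean square difference in log2 units, and the points share arrays, slides and the tissue difference that chose the genes. Olfml2b and Serpina3n were closest to each other at 0.16. C1ql2 stood at 0.21 from Olfml2b, 0.23 from Serpina3n and 0.31 from Pcdh20, and Fibcd1 at 0.48, 0.54 and 0.56 from C1ql2, Serpina3n and Olfml2b. Olfml2b also had Pcdh20 at 0.19, and Serpina3n had the growth factor gene Tgfb2 at 0.25. The 3 genes nearest to Dgkg held none of the other 4. They were Golm1, a Golgi membrane protein gene, at 0.25, Nrp1 at 0.26 and the proteoglycan gene Dcn at 0.288. Nrp1 is a co-receptor for semaphorins and vascular endothelial growth factor. Olfml2b, also at 0.288 from Dgkg, was about level with Dcn, so the cut at 3 genes alone left it out. The median over all named genes was 0.99 for Dgkg and 1.62 for Fibcd1. Pcdh20 lay at 10.21 to 10.49 on the hippocampus arrays and 7.996 to 8.61 on the cortex arrays, and Golm1 at 10.73 to 10.98 and 8.83 to 9.25.

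The tissue labels were read against marker lists of other genes, compared between control hippocampus and control cortex, where 11.7% of probes were called. Of 4 measured dentate granule cell markers 3 were higher. Prox1, the transcription factor that sets granule cell identity, averaged 8.77 ± 0.14 in control hippocampus and 6.95 ± 0.06 in control cortex (limma adjusted p = 1.1e-07). Zbtb20 was higher by 1.16 and Sema5a by 0.93, while Maml2 differed by 0.47 with a limma adjusted p of 0.056. The granule cell markers Tdo2, Rfx3 and Npnt were detected on no array. Dcn, the only marker of the CA1 list that could be named, was higher by 1.58. All 3 measured CA2 and CA3 markers were higher, Bok by 1.58, Amigo2 by 1.07 and Iyd, detected on 6 arrays, by 0.39. The list medians were 1.05 for granule cells and 1.07 for CA2 and CA3, against 0.01 for all probes. All 5 genes of the chosen set exceeded Prox1's difference of 1.82, which was fixed by their choice for this contrast.

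Of 5 measured neocortical pyramidal cell markers 4 were lower in control hippocampus, the transcription factors Mef2c by −1.94, Cux2 by −0.99, Rorb by −0.45 and Cux1 by −0.45, and Etv1 differed by 0.01. Foxp2 was detected on no array. Of 2 measured Cajal-Retzius cell markers Calb2 was higher by 0.99 and Reln lower, at −0.43. Of the genes of neighbouring regions, the striatal dopamine receptor gene Drd1 was lower in hippocampus by −2.15 and the thalamic Rora by −0.95. The summed signal of the 2 measured striatal markers was 227 to 252 in control hippocampus and 624 to 638 in control cortex, with Adora2a at no detection, and that of the 2 thalamic markers was 457 to 792 and 877 to 995, with Lef1, Synpo2 and Plekhg1 not detected. The part of these other regions in the difference between the tissues was not tested. The choroid plexus list had 0 of 4 called, and its summed signal was 503 to 1715 in control hippocampus and 1020 to 1072 in control cortex.

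**Figure D5:**
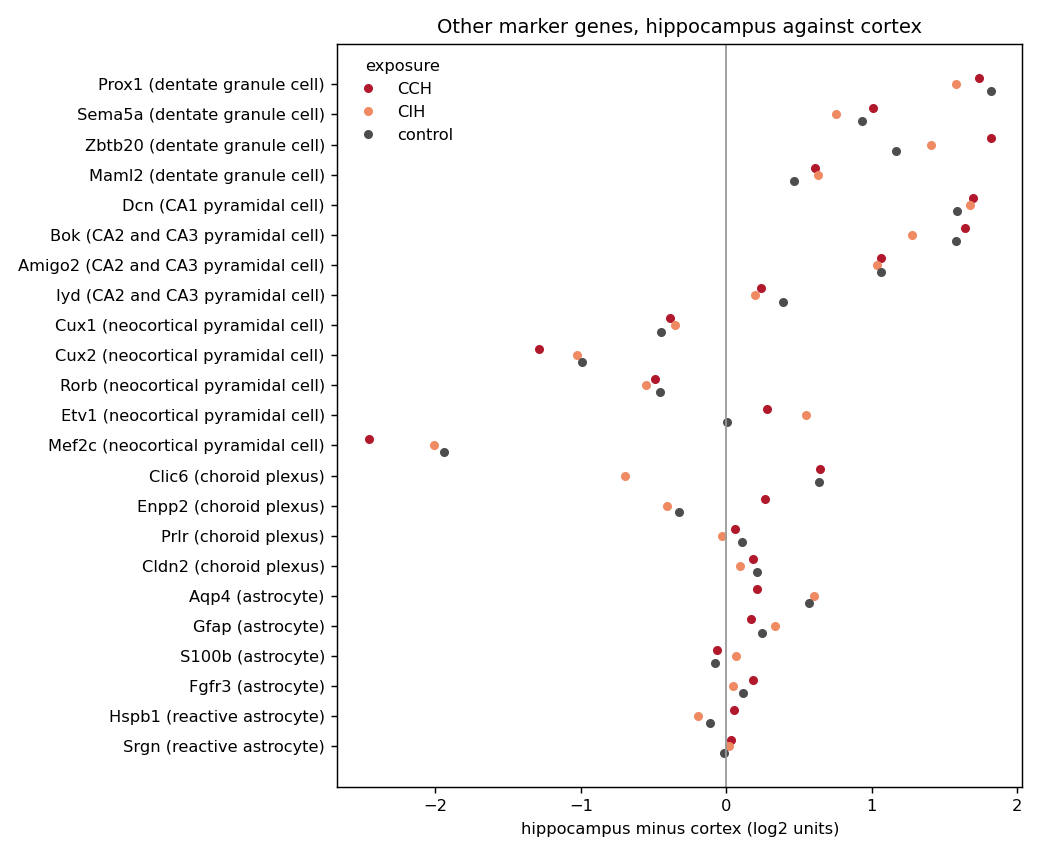
Hippocampus minus cortex (log2 units, horizontal axis) of the measured marker genes, a point per exposure as the difference of group means of 3 arrays. Markers of granule cells and of CA1 to CA3 lie right of 0 in all 3 exposures, and Mef2c, Cux2, Rorb and Cux1 lie left of it.

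Serpina3n was read beside the glial lists. Of 4 measured astrocyte markers only the water channel gene Aqp4 was called between the control tissues, higher in hippocampus by 0.57 (limma adjusted p = 0.017), and Gfap differed by 0.25. The summed astrocyte signal was 1269 to 1452 in control hippocampus and 938 to 1179 in control cortex. Neither measured reactive astrocyte marker was called, and Cd44, Cp, Psmb8, Gbp2, Tm4sf1 and Ptx3 were detected on no array. None of 5 oligodendrocyte, 3 microglia and 3 endothelial markers was called between the control tissues, where the oligodendrocyte median was −0.26. Between the tissues of hypoxic mice, 3 of the 5 oligodendrocyte markers were called lower in hippocampus under CCH and 1 under CIH. Of all probes, 14.3% and 10.7% were called there in either direction. No microglia or endothelial marker was called there.

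Under hypoxia some genes of the glial and endothelial lists were called, and they are named here because they were called. Under CCH in hippocampus 2 of 5 oligodendrocyte markers fell by limma with adjustment over all probes, Fa2h by −1.21 (adjusted p = 0.002) and Opalin by −0.72 (adjusted p = 0.0078), and the reactive astrocyte list's Hspb1 fell by −0.36 (adjusted p = 0.034). Under CCH in cortex Opalin differed by −0.70, Hspb1 by −0.52 and the endothelial Pecam1 by 0.39, all called by limma. Aqp4 was higher in CIH hippocampus than in CCH hippocampus by 0.89 (limma adjusted p = 0.015). In the same comparison Serpina3n differed by −0.14 (−0.47 to 0.19). Over the 13 arrays without detected Xist, Fa2h in CCH hippocampus was still called by limma. In that setting Opalin in CCH hippocampus was at −0.73 (limma adjusted p = 0.11) and Hspb1 at −0.34 (adjusted p = 0.088). Aqp4 was then at 0.99 for CIH against CCH in hippocampus (adjusted p = 0.1). CCH cortex is then array 1 alone, and its differences from control were −0.73 for Opalin, −0.63 for Hspb1 and 0.46 for Pecam1. None of the measured neuron markers was called under CCH or CIH against control in hippocampus, against 0.519% and 0.0615% of all probes. These were 4 granule cell, 1 CA1, 3 CA2 and CA3 and 5 neocortical markers. At those shares a call among so few genes is rare, so this says nothing of how these cells responded. For the same reason, the lack of calls among the 5 genes does not show that they were unresponsive.

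The families of the 5 genes gave few other measured members. Of 3 measured diacylglycerol kinases, Dgkh, detected on 3 arrays, was lower in control hippocampus by −0.20, and Dgkd and Dgkq differed by 0.07 and 0.13. Of the genes of diacylglycerol signalling, the Ras exchange factor gene Rasgrp1 was higher by 0.31 (limma adjusted p = 0.0076), and Prkcb and Daglb differed by −0.23 and −0.04 and were not called. For C1ql2, no other C1q-like gene could be named among the probes kept. Among 3 genes for synaptic partners of the family, Nrxn3 was lower by −0.40 (limma adjusted p = 0.011), and Nrxn2 and the receptor gene Adgrb3 differed by −0.36 and 0.17. Of 4 measured serpins Serpinf1 was higher by 0.61 and Serpina3g by 0.27, Serpinb6a differed by 0.33 and Serpinh1 by 0.09. The single measured relatives of Olfml2b and Fibcd1, Adgrl1 with an olfactomedin domain and Angptl4 with a fibrinogen-like domain, differed by −0.25 and −0.02 and were not called.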

How the data were processed

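RNA was extracted with RNeasy, amplified from 100 ng of total RNA and biotin-labelled with the TotalPrep kit, and hybridised to Illumina Mouse-6 V1 arrays, per the labels. Per the file headers, the deposited intensity of each probe was exported from the scanner software without normalization. The deposited detection score runs up to 1 and ranks a probe against negative controls. BeadStudio 2.0 is named in the submitters' processing notes, and version 1.5.1.3 per the file headers. The series description calls the CIH mice CCH treated, and the titles were followed. A further 72 columns of the arrays were not used.

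Intensities were normalised with the neqc function of limma 3.58.1 in R 4.3.3 (background from 1 minus the score, an offset of 16, quantile normalization, log2), and the 14639 probes with a score over 0.99 on at least 3 of 18 arrays were kept. The 6 group means were fitted with lmFit and eBayes to the 18 arrays together. P-values are two-sided, adjusted by Benjamini and Hochberg over all probes kept, and called means an adjusted p under 0.05. The fit was tested on simulated data.

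No key from probes to genes was used. The number in a zero-padded identifier was read as a mouse NCBI gene ID: 82.6% of 11897 such numbers match a gene, against 46.0% after raising them by 1. Names reached 3975 genes and 30.07% of the probes kept. A gene of a list counts as measured where a kept probe could be named for it, and unnamed probes may read others. The 5 genes, the 20 marker and family lists and the rules were chosen with earlier results of these data known. Genes named besides the 5 were, per list, the up to 4 with the largest called difference between the control tissues, and, per gene, the 3 named genes with the smallest root mean square difference, with exceptions marked in the text. Some genes of the lists are not reported here.

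The replicate number is the slide per the deposited hybridization log: 31 of 45 pairs of arrays on 1 slide correlated above 0.1 after group means were removed (median 0.226), against 17 of 90 on different slides (median −0.0959). Arrays per group limit the precision. Each bead value averaged 28 to 64 beads for the 5 genes. The alternatives left out background correction or the probe filter, kept probes detected on all 18 arrays, scaled by the median, used the deposited series values, added the slide as a block, left out each array or left out the 5 arrays with detected Xist. The deposited series values, also intensities, equal the authors' export minus a constant of 192.28 to 253.59 in 17 columns, with dim cells empty and column medians of 288.74 to 400.75. Nothing was subtracted in control cortex 2 (median 594.1), and why is not stated.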

Additional observations from a re-analysis of the deposited data

Results flagged for a closer look

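The CCH difference of Dgkg from control had opposite signs in the 2 tissues, and neither was called by limma. It was −0.20 (−0.52 to 0.12) in hippocampus and 0.39 (0.08 to 0.71) in cortex. The value in hippocampus minus that in cortex was −0.595 on the log2 scale. On all 3 slides Dgkg was below control in hippocampus, and in cortex CCH was above control on 2 of 3 slides. Over its 19 alternatives the hippocampus minus cortex value ran from −0.91 to −0.48.

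The CIH difference of C1ql2 from control also had opposite signs, each the same on 3 of 3 slides, and neither was called by limma. It was −0.29 (−0.63 to 0.06) in hippocampus and 0.20 (−0.14 to 0.55) in cortex. The value in hippocampus minus that in cortex was −0.487 on the log2 scale. It ran from −0.58 to −0.35 over its 19 alternatives. Both hippocampus minus cortex values are descriptions with no test, and their alternatives keep the same choice of genes. Control hippocampus was the high side and control cortex the low side of the choice of these genes, and that choice alone favours values below control in hippocampus and above control in cortex.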

How the results depend on the processing

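The 192 hippocampus minus cortex differences of the 5 genes under other settings were all above 0 (1.31 to 3.63). Of their 575 exposure and interaction values (an interaction is the effect in hippocampus minus that in cortex) under other settings, 1 had an adjusted p under 0.05 and 52 had the other sign. With the replicate block, that is the slide, no gene of the 5 was called and the probes called were 95 for CCH and 10 for CIH against control and 42 for CIH against CCH in hippocampus, 172, 23 and 84 in cortex, and 0 in both interactions, against 76, 9, 42, 123, 22, 69, 0 and 0 without it.

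The probes called moved by over 1.5 times as follows. Without background correction they were 30 for CIH in hippocampus and 51 for CIH in cortex. Without the filter they were 22 for CIH against CCH in hippocampus, and in cortex 72 for CCH, 6 for CIH and 36 for CIH against CCH. Median scaling gave 145 for CCH in hippocampus. The deposited series values, which test fewer probes, gave 48 for CCH and 11 for CIH against CCH in hippocampus, 28, 10 and 17 for CCH, CIH and CIH against CCH in cortex, 1 and 3 for the CCH and CIH interactions, and 634, 992 and 522 between the tissues of control, CCH and CIH mice, against 1710, 2089 and 1566. Without the arrays with detected Xist the counts were 41, 3 and 17 in hippocampus and 742, 3 and 367 in cortex for CCH, CIH and CIH against CCH, 122 for the CCH interaction and 952 between the CIH tissues, and 1 of the 5 genes, C1ql2, was called for CIH against CCH in cortex. CCH cortex is then 1 array.

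Scaling also moved the split of calls. Median scaling gave 35 higher and 110 lower for CCH in hippocampus, against 45 and 31, 2 and 4 for CIH, against 4 and 5, 27 and 15 for CIH against CCH, against 14 and 28, and 50 and 99 for CCH in cortex, against 67 and 56. Between the control tissues it gave 550 and 1193, against 807 and 903, and between the CCH tissues 511 and 2003, against 1000 and 1089. The deposited series values moved the median of all probes by up to 0.19 (the CIH interaction) and gave 205 higher and 429 lower between the control tissues.

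These values of the 5 genes changed sign, none called. With the deposited series values Fibcd1 for CIH in hippocampus was 0.034, and in cortex C1ql2 for CCH was −0.021, Dgkg and Serpina3n for CIH −0.029 and −0.144, and Serpina3n for CIH against CCH −0.013. Olfml2b had no such value in cortex. With median scaling C1ql2 for CCH and Serpina3n for CIH in cortex were −0.040 and −0.081, and the CCH interactions of Olfml2b and Serpina3n −0.121 and −0.0025. Without the arrays with detected Xist C1ql2 for CCH in cortex was −0.481, Olfml2b for CIH in cortex 0.0096, and the CCH interactions of Fibcd1 and C1ql2 0.12 and 0.245. The cause of these changes was not tested.

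Leaving out 1 array at a time, the probes called ran from 52 to 126 for CCH, 8 to 52 for CIH and 24 to 35 for CIH against CCH in hippocampus, from 60 to 117, 4 to 20 and 31 to 49 in cortex, and from 0 to 1 for the CCH interaction. The highest counts for CCH and CIH in hippocampus came without control hippocampus 1. None of the 5 genes was called. Fibcd1 ran from −0.32 to 0.12 for CCH, −0.23 to 0.14 for CIH and −0.12 to 0.27 for CIH against CCH in hippocampus, −0.23 to 0.18 for CCH and −0.028 to 0.39 for CIH in cortex, and −0.30 to 0.14 and −0.42 to 0.023 for the CCH and CIH interactions. C1ql2 in cortex ran from −0.12 to 0.28 for CCH and −0.075 to 0.32 for CIH against CCH. Olfml2b ran from −0.11 to 0.030 for CCH in hippocampus, −0.035 to 0.0096 for CIH in cortex and −0.054 to 0.083 for the CCH interaction. Dgkg for CIH against CCH in hippocampus ran from −0.0044 to 0.19. Serpina3n ran from −0.11 to 0.22 for CIH and −0.021 to 0.31 for CIH against CCH in cortex, and −0.063 to 0.14 for the CCH interaction. Every other exposure value of the 5 kept its sign. Over 6 group means in place of 18 arrays, the 3 nearest genes of Dgkg became Golm1, Tgfb2 and Pcdh20.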
